A study of Mus musculus with 3 samples.

Results

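Bone-lining cells that carried transcripts of cartilage and of a small set of secreted-protein genes were described in droplet single-cell RNA-seq libraries of Alcam+Sca-1- bone-lining cells. The cells were chosen by a fixed gene rule, taken from earlier clusters of these same cells. A cell was selected when it had UMIs (unique molecular identifiers, 1 per captured transcript) of at least 3 of the 6 markers Wif1, Cytl1, Myoc, Cox4i2, Crispld1 and Msmp and at least 1 UMI of Acan, which encodes the cartilage proteoglycan aggrecan. It also had to hold less than 0.4% of its UMIs in Cilp, less than 1% in Ibsp, fewer than 3 UMIs of Prkg2 and no UMI of Ptprc, the gene of the leukocyte antigen CD45. In all, 4643 of 19482 cells met the rule, namely 75 of 2527 in library 1 (2.97%, exact binomial 95% interval 2.34 to 3.71), 1947 of 6725 in library 2 (29.0%, 27.9 to 30.1) and 2621 of 10230 in library 3 (25.6%, 24.8 to 26.5). The mean share was 19.2 ± 14.1% (SD, n = 3 libraries), and library 1 lay far below the others.

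The 3 libraries formed 1 group without treatment, so no condition was compared. All came from wild-type (WT) mice and are labelled as bone marrow tissue. The bone surface cells were freed with collagenase from pieces of femora, tibias and iliac bones after the marrow had been flushed out, stained for CD45, Ter119, CD31, Alcam and Sca-1 and with the dead-cell dye propidium iodide, and sorted. The study's general staining protocol also lists an antibody to the integrin Itga8, which the labels of these libraries do not name. The labels give neither strain, age, sex nor the animals behind a library. The study's methods give an age of 6 to 12 weeks for its mice and call the libraries independent samples, without naming the strain of these WT mice or saying whether each library came from its own animals, so the spread between libraries may be partly technical.

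Chondrocytes build cartilage from type II collagen and aggrecan under the transcription factor Sox9. In a joint, the superficial layer makes the lubricant lubricin, the product of Prg4, whereas deeper and growth plate chondrocytes make a denser matrix and pass through columnar and hypertrophic stages. Wnt signalling moves chondrocytes towards hypertrophy and bone, and cartilage keeps secreted Wnt antagonists at hand, among them Wif1 and the secreted Frizzled-related proteins. Among the other markers, Cytl1 encodes a small secreted protein made by chondrocytes, Myoc the secreted glycoprotein myocilin, best known from the eye, Crispld1 a secreted protein with a CAP domain, Cox4i2 an alternative subunit of cytochrome c oxidase, and Msmp a small secreted microseminoprotein.

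Total depth was 20985636, 79905165 and 69890252 UMIs in libraries 1, 2 and 3, and values given in a row follow that order throughout. Selected cells had a median of 8838, 10281 and 6809 UMIs, 2487, 2800 and 2149 genes and 2.31, 3.36 and 3.01% mitochondrial UMIs. Libraries 1 and 2 shared 5 cell barcodes, libraries 1 and 3 shared 9 and libraries 2 and 3 shared 28, none of them with selected cells in both. Library 1 stood apart from the others. Of 3190 genes compared over the selected cells, 58 were at least 4-fold higher and 34 at least 4-fold lower in library 1 than in both other libraries, against 0 and 0 for library 2 and 1 and 0 for library 3. In library 1, 98.7% of the UMIs of the antibody gene Igkc lay in 2 selected cells. Values without library 1 are given below for Prg4, Lef1, the superficial cartilage, respiratory chain, hypoxia and stress lists and the counts over all genes.

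Levels are given in CPM, the UMIs of a gene per 1000000 UMIs, both summed over the cells of a population in a library. The cartilage part of the name held. Sox9 stood at 1438, 1247 and 1571 CPM, Acan, which the rule used, at 1326, 2178 and 2229 CPM, and Comp, the cartilage oligomeric matrix protein, at 2835, 4312 and 4706 CPM. Col2a1, the type II collagen gene, reached 730.4, 21915 and 19986 CPM and Hapln1, the link protein gene, 603, 2343 and 2119 CPM. Both were lower in library 1 than in libraries 2 and 3. Col9a1, a type IX collagen gene, was likewise low in library 1 (31.9, 1569 and 1407 CPM). Matn1, a matrilin gene of hyaline cartilage, was near 0 in every library (0, 9.01 and 6.97 CPM).

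The marker part of the name held unevenly and did not set the cells apart from their neighbours. Cytl1 was seen in 100, 94.9 and 97.1% of the selected cells and Wif1 in 89.3, 86.9 and 88.4%. Myoc was seen in only 32, 32.6 and 36.1%, so most selected cells had none, and 90% of its UMIs lay in 13.3, 14.2 and 16.4% of them. The neighbours were gated in the same libraries: 1541 few-marker Acan cells (at least 3 UMIs and 0.05% of UMIs of Acan, 0 to 2 of the 6 markers, every other condition of the rule met), 2375 Cilp-high cells (Cilp at 0.4% of UMIs or more), 2642 Prkg2 cells (at least 3 UMIs of Prkg2, a kinase gene of growth plate chondrocytes) and 3191 Ibsp-high cells (Ibsp, the bone sialoprotein gene, at 1% or more). Median depth was 5764.5, 5346 and 5233 UMIs in few-marker, 6155.5, 7643 and 4957 in Cilp-high and 6903, 19598 and 11581.5 in Prkg2 cells. Ibsp-high cells had 6599, 10381.5 and 6496.5. The gates on Prkg2 UMIs and on few markers depend on depth, and its part in the differences was not tested. Since the rule used the markers, their levels are a description and were not tested. Wif1 stood at 1179.7, 1109 and 1175 CPM in selected cells (1154 ± 39.6, mean ± SD), with very little spread over the libraries. Ibsp-high cells held more Wif1 (1599, 2661 and 2475 CPM) in every library, and Cilp-high cells (600.1, 1113 and 1099 CPM) matched the selected cells in libraries 2 and 3. Cytl1 stood at 20124, 8897 and 11817 CPM in selected cells and was higher in Cilp-high cells of every library (27174, 30506 and 31359 CPM).

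Myoc was the marker with the clearest excess over both cartilage neighbours, at 561, 336 and 447 CPM against 210.1, 272 and 270.2 CPM in Cilp-high and 0, 23.003 and 23.6 CPM in Prkg2 cells. Ibsp-high cells held more in every library (721, 433 and 514 CPM). Crispld1 (291, 619 and 665 CPM) was higher in Ibsp-high cells in every library (677, 1217 and 1086 CPM), and so was Cox4i2 in libraries 2 and 3 (213, 177 and 225 CPM in selected against 196, 403 and 424 CPM in Ibsp-high cells). Few-marker Acan cells held the least Myoc, Crispld1 and Cox4i2 of the cartilage populations outside library 1, which their definition favours.

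**Figure D1:**
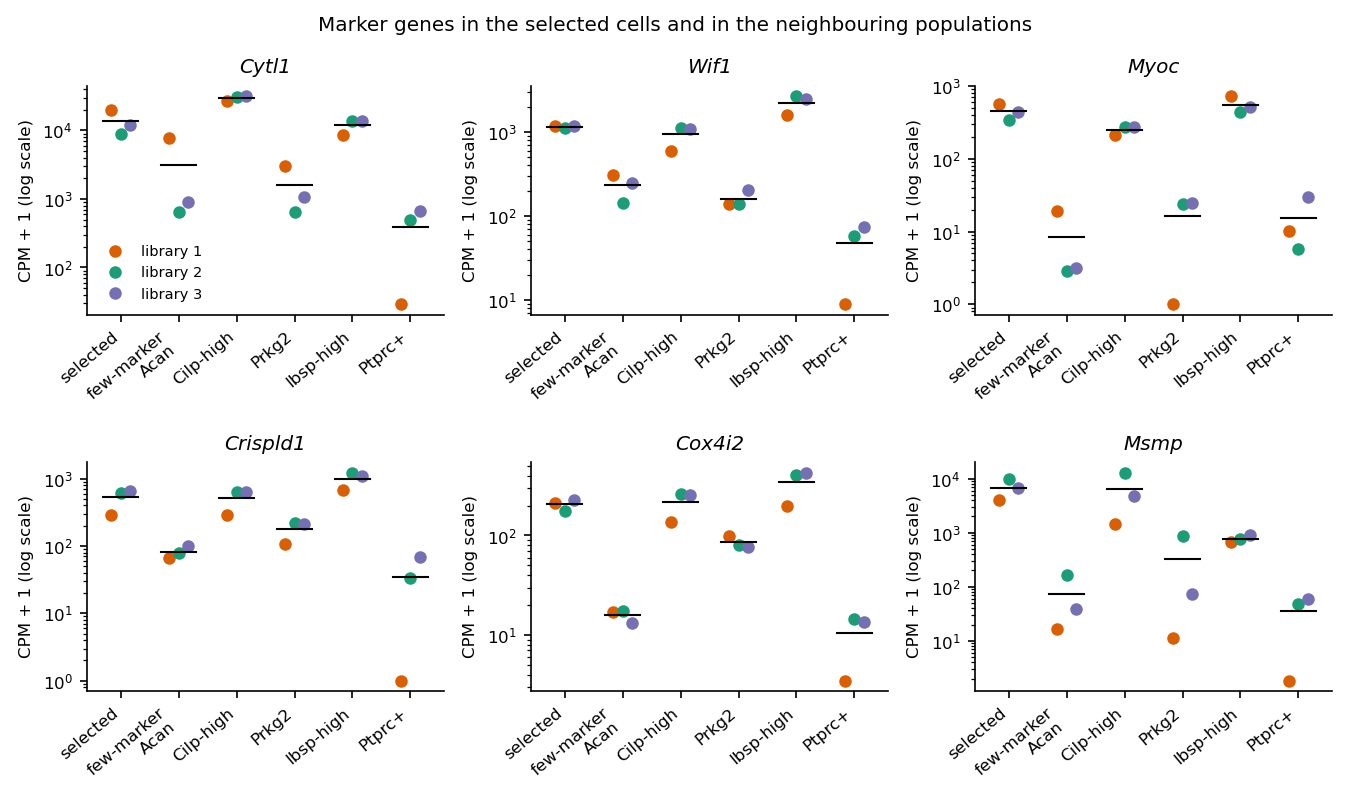
CPM + 1 on a log axis for the 6 marker genes in selected cells, 4 neighbouring cartilage populations and leukocytes (at least 2 UMIs of Ptprc); points are the 3 libraries and bars their means. Wif1 in selected cells lies between 1109 and 1180 CPM, above few-marker Acan and Prkg2 cells and below Ibsp-high cells in every library.

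A marker UMI can also come from free RNA in the droplets. Leukocytes with at least 2 Ptprc UMIs, which should lack these genes, numbered 95, 84 and 117, with a median of 23613, 22116 and 12271 UMIs. At least 3 of the 6 markers were seen in 1.05% (exact 95% interval 0.0266 to 5.73), 23.8% (15.2 to 34.3) and 29.9% (21.8 to 39.1) of them. Thinned to 2000 UMIs a cell, the shares were 1.05, 1.19 and 5.13% in leukocytes and 62.7, 51.0 and 58.9% in selected cells. Every selected cell had 3 markers by the rule before thinning, so its share is a description and no independent check. Of the selected cells, 75, 1886 and 2432 were deep enough for thinning and the rest were left out. Cytl1 was the marker most often seen in leukocytes (34.7, 84.5 and 80.3% of them). Msmp came next in libraries 2 and 3 (58.3 and 44.4%) but not in library 1 (2.11%), and Myoc was rare (2.11, 3.57 and 10.3%). The intervals cover counting error only.

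The cells on either side of each threshold of the rule were set side by side, without a test. Prg4, which the rule did not use, stood at 58725, 2133 and 3969.7 CPM in cells with 2 markers that met every other condition, 64752, 6056 and 13609.9 CPM in cells with 3 markers and 60276, 69815 and 73462 CPM in cells with all 6. It rose steadily with the number of markers in libraries 2 and 3. Median depth moved with the same number, from 6264, 5369 and 4869 UMIs at 2 markers to 12044, 11398 and 7552.5 UMIs at 6, and its part in the result was not tested. Matn3, which encodes the matrix protein matrilin-3, ran the other way in libraries 2 and 3, from 41.8, 1068 and 1012 CPM at 3 markers to 0, 156 and 183 CPM at 6. The other thresholds differed among themselves. Selected cells with 0.3 to 0.4% Cilp numbered 14, 116 and 203 and held 122366, 95499 and 109276 CPM of Prg4, against 176467, 97702 and 113393 CPM in the 26, 108 and 186 cells with 0.4 to 0.5% Cilp just outside. Across the Ibsp threshold, 3, 74 and 129 cells with 0.8 to 1% Ibsp lay inside and held 14521, 38605 and 32805 CPM of Prg4, against 37264, 19339 and 26083 CPM in the 5, 69 and 114 cells with 1 to 1.2% outside. Prg4 was thus lower outside in libraries 2 and 3, and higher in library 1, where few cells lay on each side. At 2 UMIs of Prkg2, 3, 153 and 160 cells were kept, with 87.3, 4868 and 3853 CPM of Prg4, and at 3 UMIs 1, 122 and 126 were not, with 0, 3754 and 2058 CPM. The Acan threshold showed a step. Cells with 1 Acan UMI (6, 139 and 188) were inside and held 24764, 13060.4 and 31428 CPM of Prg4, against 3791, 6625 and 12141 CPM in the 63, 217 and 270 cells with none that met all else.

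**Figure D2:**
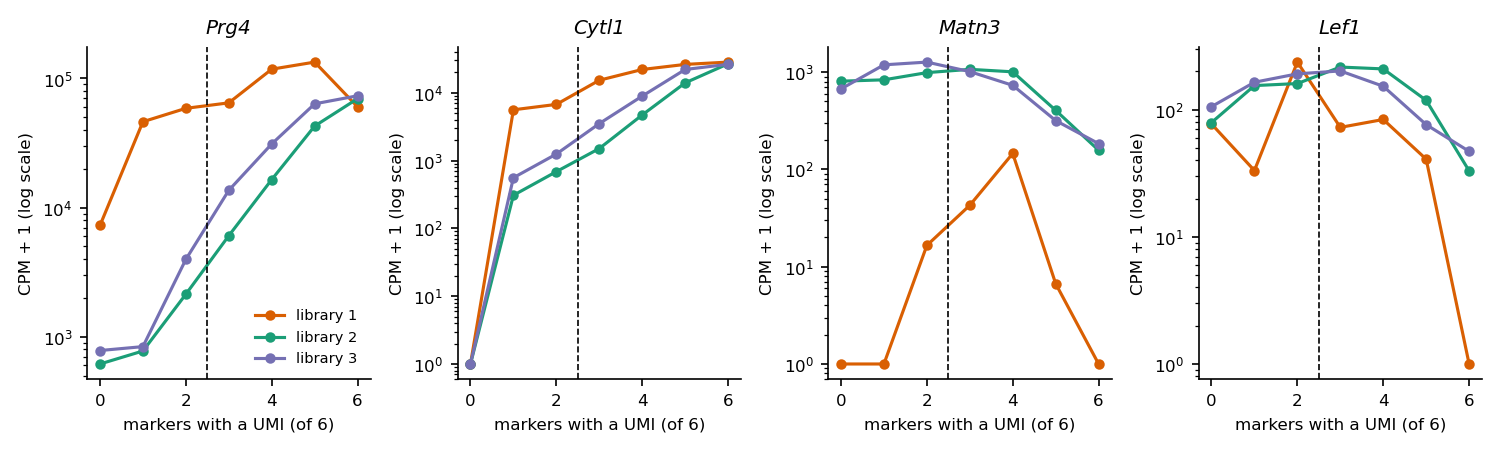
CPM + 1 on a log axis against the number of the 6 markers with a UMI, for cells that met the other conditions of the rule; each line is a library and the dashed line marks the threshold of 3 markers. Prg4 and Cytl1 climb with the number of markers in libraries 2 and 3 (Cytl1 is itself 1 of the markers counted), and Matn3 and Lef1 are lowest at 6 markers in the same libraries.

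The regulatory stretch before the start site is shown for 3 genes, since 2 of them are markers of the cells and the third, Matn3, marks the opposite end of the selected cells. The sequences are RefSeq promoter entries of build GRCm38.p6, on the plus strand, written 5′ to 3′ and ending at the base before the annotated start. Of 8 genes looked up, the 6 markers with Prg4 and Matn3, 5 had an entry, and Cox4i2, Crispld1 and Prg4 had none. Capitals mark matches to a GC box (GGGCGG) or a TATA element (TATAAA) on either strand.
Cytl1, chr5:37735269-37735518: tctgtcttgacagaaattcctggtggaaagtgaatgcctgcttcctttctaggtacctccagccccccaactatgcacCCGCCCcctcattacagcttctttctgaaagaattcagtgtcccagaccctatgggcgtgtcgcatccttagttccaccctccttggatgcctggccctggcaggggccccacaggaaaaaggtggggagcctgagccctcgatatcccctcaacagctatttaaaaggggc
Wif1, chr10:121033754-121033959: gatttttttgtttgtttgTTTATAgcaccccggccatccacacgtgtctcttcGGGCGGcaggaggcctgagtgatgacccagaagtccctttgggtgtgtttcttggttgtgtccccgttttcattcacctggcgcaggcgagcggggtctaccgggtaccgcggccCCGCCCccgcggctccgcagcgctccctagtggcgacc
Matn3, chr12:8947679-8947928: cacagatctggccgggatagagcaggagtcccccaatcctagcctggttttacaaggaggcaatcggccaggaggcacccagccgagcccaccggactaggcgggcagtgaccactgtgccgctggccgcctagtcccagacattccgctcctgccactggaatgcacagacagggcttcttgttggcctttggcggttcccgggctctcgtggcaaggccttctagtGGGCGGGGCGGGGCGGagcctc
The 250 bases before Cytl1 had a GC content of 54.8% and 1 GC box, on the minus strand. The 206 bases before Wif1 had 61.7% GC, 2 GC boxes and a TATAAA on the minus strand 182 bases from the end. The 250 bases before Matn3 had 65.2% GC and 3 GC boxes that overlap each other close to the start. A GC box was present in 32.7% of 32851 RefSeq promoters over 250 bases and in 25.8% over 206 bases, and TATAAA in 12.4 and 9.38%. The letters AACAAT (Sox factors), TCAAAG (Lef and Tcf factors) and TGTGGT (Runx factors) were searched on both strands as well. None of them is in these windows, which speaks only of these letters, and 9.42, 13.8 and 14.0% of promoters over 250 bases hold them.

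Within the selected cells, many genes differed with Prg4. Msmp and Prg4 had the highest ratio of variance to mean of all genes in libraries 2 and 3 after thinning to 2000 UMIs. Prg4 took a median of 6.61, 0.0706 and 0.204% of a cell's UMIs and up to 28.9, 44.7 and 38.7% in single cells. Cells with Prg4 at 0.5% of UMIs or more were called Prg4-high, a value set after the distributions had been seen, so the differences between the groups are described and not tested. There were 52, 708 and 1148 such cells, that is 69.3, 36.4 and 43.8% of the selected cells (49.8 ± 17.3%, mean ± SD, n = 3). Only 2, 182 and 253 cells lay near the boundary, between 0.25 and 1%. The 23, 1239 and 1473 Prg4-low cells held 57, 7105 and 7213 Prg4 UMIs, and the 95, 84 and 117 leukocytes held 153, 1407 and 3139. As a share of UMIs, leukocytes held more Prg4 than Prg4-low cells in libraries 2 and 3 and less in library 1. The part of free RNA in the low Prg4 values was not tested. Prg4-high cells had seen more of the 6 markers (a mean of 4.02, 4.77 and 4.49 against 3.39, 3.79 and 3.61), and in libraries 2 and 3 they were the shallower cells, with medians of 9844, 9368.5 and 6269 UMIs against 6543, 11160 and 7352.

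**Figure D3:**
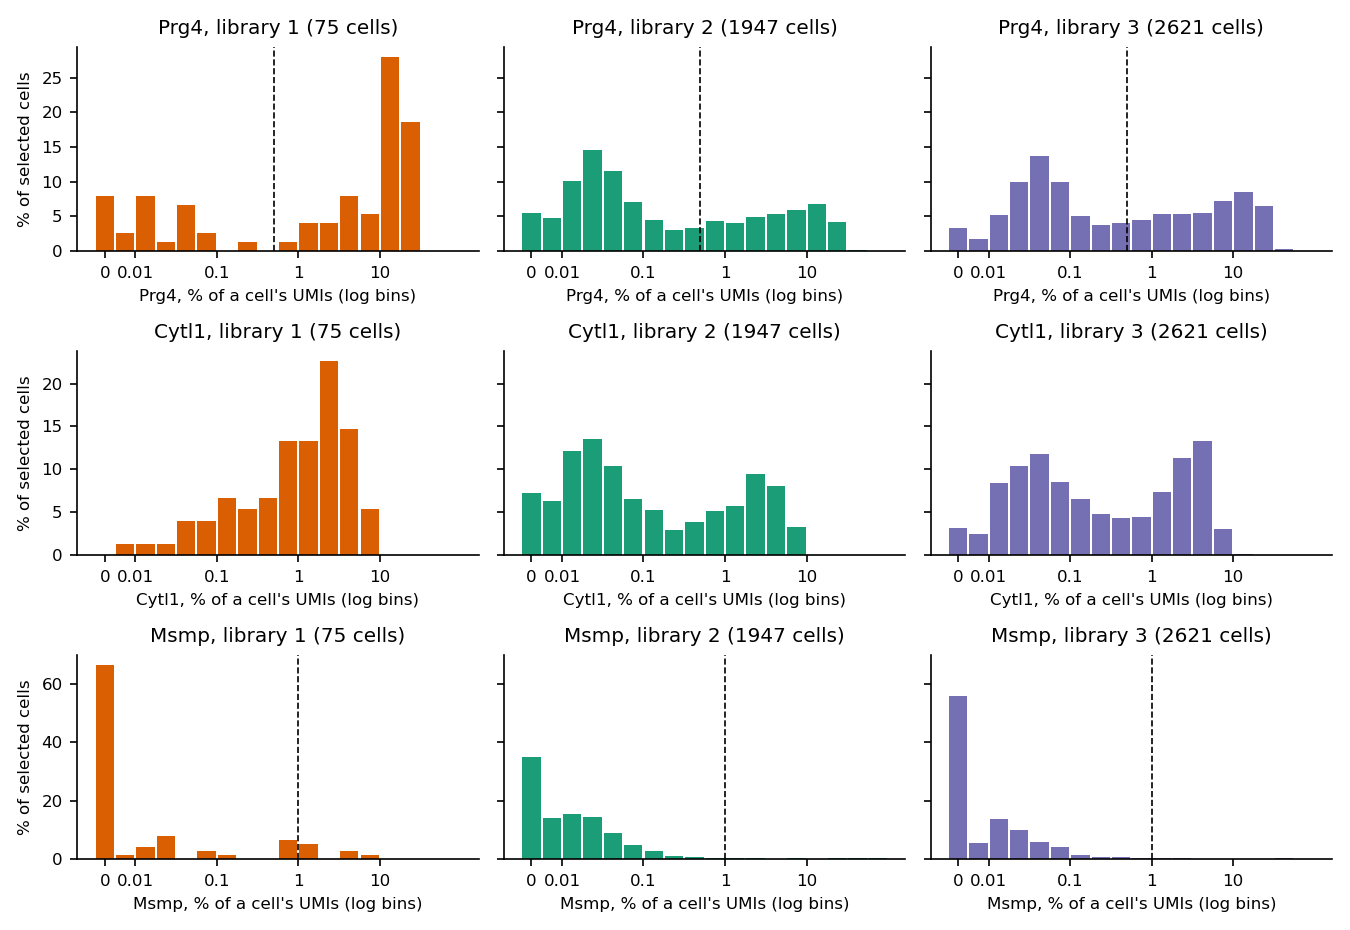
Share of the selected cells (%) against the share of a cell's UMIs taken by Prg4, Cytl1 or Msmp (log bins, cells without a UMI at 0) in each library; dashed lines mark 0.5% for Prg4 and 1% for Msmp. Prg4 and Cytl1 show a low and a high peak in libraries 2 and 3, and nearly all cells have little or no Msmp. The part of free RNA in the low peaks was not tested.

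Cytl1, a marker, went with Prg4. It stood at 25972, 26367 and 27151 CPM in Prg4-high and 4252, 1014 and 1516 CPM in Prg4-low cells, and 88.5, 78.8 and 84.8% of Prg4-high cells gave it at least 0.5% of their UMIs, against 34.8, 5.89 and 5.84% of Prg4-low cells. Myoc (617, 806 and 902 against 409, 124 and 141 CPM) and Cox4i2 (246, 357 and 378 against 124, 95.4 and 122 CPM) were higher in Prg4-high cells of every library. Wif1 was not so divided. It was higher in Prg4-high cells of libraries 2 and 3 and lower in those of library 1 (1081, 1907 and 1773 against 1448, 749 and 773 CPM), and Crispld1 did the same (248, 1245 and 1094 against 409, 337 and 376 CPM). Thinned to 2000 UMIs, 65.4, 86.7 and 86.1% of Prg4-high but 56.5, 31.1 and 38.1% of Prg4-low cells still showed 3 markers.

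Prg4-high cells carried genes of superficial cartilage. Of 13 superficial and articular cartilage genes at 20 CPM or more in either group, 7 were at least 2-fold higher in Prg4-high cells of every library (Prg4, which made the groups, Cilp2, Clu, Abi3bp, Thbs4, Dpt and Creb5) and 1, Cd44, lower. The median log2 ratio of that list was 1.59, against -0.19 over all 6158 genes at that level, of which 98 were at least 2-fold higher and 169 at least 2-fold lower in every library. Clu, the gene of the chaperone clusterin, stood at 7206, 2037 and 2286 CPM in Prg4-high and 640.5, 914 and 1062 CPM in Prg4-low cells. Dpt, which encodes the matrix protein dermatopontin, stood at 27.8, 67.2 and 61.5 against 0, 5.93 and 3.49 CPM. Gas1, a membrane protein gene that acts in hedgehog signalling, reached 298, 873 and 792 CPM against 26.9, 80.2 and 78.7 CPM. Creb5, a transcription factor gene, stood at 438, 484 and 444 against 10.8, 55.8 and 52.96 CPM. Of 17 genes of BMP and TGF-beta signalling, 3 were at least 2-fold higher in every library (the ligand gene Bmp2 and the antagonist genes Grem1 and Chrdl2) and 1 lower (Tgfb2). Chrdl2 stood at 143, 97.1 and 115 against 0, 6.198 and 4.93 CPM and Grem1 at 99.2, 141 and 111 against 21.5, 10.7 and 10.4 CPM, while Chrdl1, a related antagonist gene, ran the other way, at 35.7, 27.9 and 36.8 against 96.9, 82.3 and 83.2 CPM. Among hypoxia-response genes, 3 of 10 were higher (Ndufa4l2, Bnip3 and Higd1a), with Ndufa4l2 at 769.5, 1344 and 1322 against 53.8, 189 and 187 CPM. Col10a1, the collagen gene usually taken as a sign of hypertrophy, was also on this side, at 1065, 512 and 442 against 10.8, 36.6 and 106 CPM, whereas Runx2, a regulator of hypertrophy, was on the other.

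Prg4-low cells carried Matn3, Runx and Lef1. Matn3 stood at 194, 1069.9 and 1040.01 CPM in Prg4-low and 0, 101 and 139.5 CPM in Prg4-high cells, and 21.7, 72.2 and 70.6% of Prg4-low cells had a Matn3 UMI, against 0, 33.8 and 25.4% of Prg4-high cells. No Matn3 UMI was seen in the 52 Prg4-high cells of library 1. Lef1, a transcription factor of the Lef and Tcf group through which Wnt signals reach their targets, stood at 221, 234 and 217 CPM against 3.97, 14.2 and 26.8 CPM. It had a UMI in 60.9, 65.5 and 56.9% against 1.92, 4.80 and 6.97% of cells. Runx2 (538, 391 and 411 against 97.2, 36.5 and 74.04 CPM) and Runx3 (129, 138 and 148 against 11.9, 13.3 and 17.7 CPM), which drive chondrocyte maturation, were higher in Prg4-low cells of every library. Notum, an extracellular enzyme that inactivates Wnt proteins, was higher in Prg4-low cells (135, 121 and 135 against 13.9, 21.4 and 36.3 CPM), and so were Unc5c, a netrin receptor gene (231, 255 and 238 against 7.93, 24.2 and 33.6 CPM), and Pcolce2, a procollagen processing enhancer gene (339, 549 and 545 against 55.5, 67.5 and 84.4 CPM). Of 27 cartilage matrix genes, 9 were at least 2-fold higher in Prg4-low cells in every library, among them Col9a1, Col9a2 and Col9a3, and 2 (Clec3a and Dcn) in Prg4-high cells. Sox9 leaned the other way, at 1779, 1725 and 2146 CPM in Prg4-high against 511, 1032 and 1184 CPM in Prg4-low cells.

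**Figure D4:**
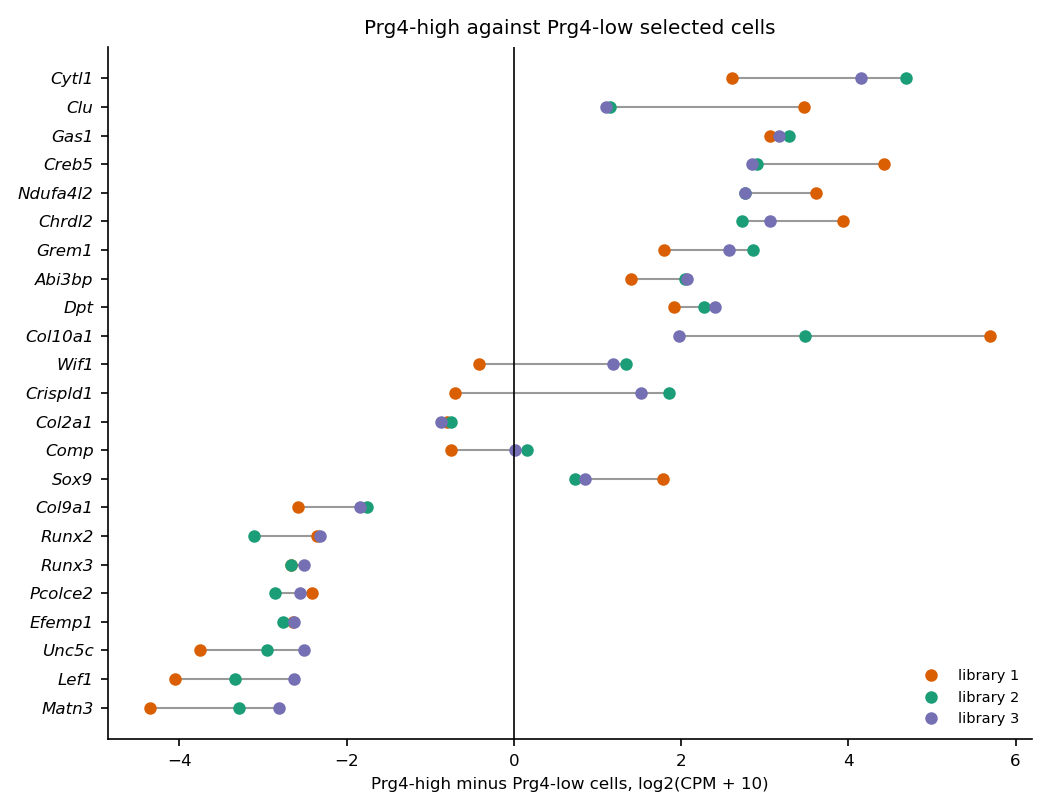
Difference between Prg4-high and Prg4-low selected cells on the log2(CPM + 10) scale for 23 genes; each point is a library. Cytl1, Gas1, Creb5 and Chrdl2 lie right of 0 and Matn3, Lef1, Unc5c and Runx3 left of 0 in all 3 libraries, and Wif1, Crispld1 and Comp change side in library 1.

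The groups of selected cells were also set beside the neighbours. Prg4-high cells and Cilp-high cells had Cytl1 at like levels (25972, 26367 and 27151 and 27174, 30506 and 31359 CPM) and both held little Lef1 (3.97, 14.2 and 26.8 and 6.35, 12.7 and 12.6 CPM). Prg4-low cells shared Matn3, Runx2, Lef1 and Unc5c with both few-marker Acan cells and Prkg2 cells. Matn3 stood at 194, 1069.9 and 1040.01 CPM in Prg4-low, 11.3, 1275 and 1412 CPM in few-marker and 191, 1907 and 1735 CPM in Prkg2 cells. Lef1 stood at 221, 234 and 217, then 204, 196 and 189.8, then 229.7, 108 and 126 CPM in the same order of populations. In libraries 2 and 3 few-marker cells were thus nearer than Prkg2 cells for Matn3 and Lef1. Unc5c stood at 231, 255 and 238 CPM in Prg4-low, 92.98, 270.01 and 256 CPM in few-marker and 557, 311 and 280.1 CPM in Prkg2 cells. Runx2 stood at 538, 391 and 411 CPM in Prg4-low, 519, 532 and 543 CPM in few-marker and 581, 389 and 512 CPM in Prkg2 cells. For Runx2, Prkg2 cells were the nearer in libraries 2 and 3. Efemp1, a fibulin gene, was at 64.6, 116 and 151 CPM in Prg4-low and 52.2, 91.8 and 105 CPM in few-marker cells, and lower in Prg4-high (1.98, 8.604 and 16.01 CPM), Cilp-high (2.44, 8.11 and 8.87 CPM) and Prkg2 cells (31.3, 16.002 and 24.1 CPM).

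Most UMIs of Msmp lay in a handful of cells. An Msmp UMI was seen in 34.7, 69.2 and 44.4% of selected cells, against 2.11, 58.3 and 44.4% of leukocytes. Selected cells with at least 1% of their UMIs in Msmp numbered 7, 44 and 41 (9.33, 2.26 and 1.56% of the selected cells) and held 80.2, 98.2 and 97.8% of its UMIs. In libraries 2 and 3, 22 and 20 cells gave Msmp over 10% of their UMIs and single cells up to 68.9 and 64.5%, while the highest cell of library 1 gave 6.79%. Without these cells, Msmp fell from 4055, 9612 and 6656 to 903, 174 and 148 CPM. Of these cells 7, 22 and 20 were Prg4-high, which was all of them in library 1, while libraries 2 and 3 had Msmp-rich cells in both Prg4 groups. Another 17, 31 and 41 Msmp-rich cells lay among the Cilp-high cells. Without Msmp in the rule, 6, 351 and 312 selected cells (8, 18.0 and 11.9%) would not have been selected.

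Msmp-rich cells of libraries 2 and 3 shared further genes, described here without a test because the 1% level was chosen after the values were seen. Igfbp5, an insulin-like growth factor binding protein gene, stood at 12.9, 1584 and 954 CPM in Msmp-rich and 302, 65.9 and 60.04 CPM in the other selected cells, with the opposite direction in the 7 cells of library 1. Gdf6, a BMP family ligand gene of joints, stood at 25.8, 119 and 119 against 3.27, 0.387 and 0.219 CPM, and Ecm1, an extracellular matrix protein gene, at 25.8, 257 and 244 against 21.2, 18.5 and 13.1 CPM. Fkbp2 (116, 614 and 664 against 94.7, 94.96 and 90.5 CPM) and Fkbp11 (12.9, 260.4 and 236 against 19.6, 46.3 and 44.3 CPM), which encode folding enzymes of the secretory pathway, were higher in libraries 2 and 3 too. Rgp1 stood at 12.9, 182 and 156 against 3.27, 7.44 and 5.901 CPM, but its value is uncertain. Msmp (chr4:43583216-43584494, minus strand, GRCm38) lies wholly within an exon of Rgp1 (chr4:43582860-43587487, plus strand), in its untranslated part, with 1279 shared bases, and the sources used here do not say whether counting used the strand.

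For the comparison with neighbouring populations, UMIs were summed for each population in each library and fitted in 1 edgeR quasi-likelihood model with library as a block. The 11 genes of the rule and mitochondrial genes got no test. Because the rule came from clusters of these cells, genes that go with the markers had to differ. An adjusted p-value thus only weighs a difference against the spread between libraries and lends no independent support to the grouping. A gene could pass without the same direction in every library. Against few-marker Acan cells, 698 of 14585 genes (4.79%) passed an adjusted p of 0.05, 352 (2.41%) higher and 346 (2.37%) lower in selected cells. Against Cilp-high cells 3180 (21.8%) passed, 1837 (12.6%) higher and 1343 (9.21%) lower, and against Prkg2 cells 4532 (31.1%), 2634 (18.1%) higher and 1898 (13.0%) lower. These counts hung on libraries 2 and 3. Without library 1 they were 4040, 6417 and 8596 of 16263 genes tested, so the share of all genes that passed was larger too. Without library 2 they were 3, 166 and 128 of 13821, and without library 3 they were 2, 149 and 138 of 12704. With library 1 as 1 of only 2 libraries, most calls were lost, and single calls below carry that limit.

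Against few-marker Acan cells, 5 genes of superficial cartilage were higher. Of 14 superficial and articular cartilage genes tested, 5 were higher (Cilp2, Abi3bp, Thbs4, Dpt and Erg) and none lower, with a median log2 fold change of 1.35 against 0.00 over all genes. Over all genes, 2.41% were higher and 2.37% lower. Dpt stood at 20.3, 24.97 and 26.8 CPM against 2.27, 0.618 and 2.79 CPM (log2 fold change 3.79 ± 0.33, adjusted p = 5.32e-05). Abi3bp, a matrix protein gene, stood at 581, 492 and 515 against 209, 139.9 and 125 CPM (1.93 ± 0.37, adjusted p = 0.00907). Prg4 itself did not pass (1.68 ± 1.05, adjusted p = 0.387), at 93345, 26761 and 36786 against 75949, 2064 and 2732 CPM, and few-marker cells of library 1 held nearly as much as the selected cells there. This call hung on library 1. Without it, edgeR gave a log2 fold change of 3.86 ± 0.17 for Prg4, with an adjusted p of 3.94e-10, and 11 of the 14 superficial genes were higher and 3 lower. List counts without library 1 stand beside 4040 of 16263 genes that passed there, against 698 of 14585 with all libraries. Of 23 genes of BMP and TGF-beta signalling, 6 were higher and 1, Bmp3, was lower, with a median of 0.58. The 6 were the ligand genes Bmp4 and Tgfb3, the antagonist genes Grem1 and Chrdl2, the decoy receptor gene Bambi and the response gene Id1. Grem1 stood at 78.3, 51.1 and 50.98 against 43.1, 3.398 and 3.41 CPM (3.42 ± 0.59, adjusted p = 0.00488) and Chrdl2 at 104, 34.4 and 49.1 against 34.02, 2.47 and 2.17 CPM (3.71 ± 0.56, adjusted p = 0.00200). Runx2 (-0.89 ± 0.22, adjusted p = 0.0318) and Runx3 (-0.92 ± 0.23, adjusted p = 0.0317) were the 2 of 18 chondrogenic transcription factor genes that passed, both lower. Of 5 fibroblast genes tested, 2 were higher than in few-marker cells, and no gene of the tendon, erythroid, reticular cell or dissociation stress lists passed, although the unadjusted edgeR p was under 0.05 for 5 of 10 stress, 2 of 6 tendon, 1 of 6 erythroid and 0 of 7 reticular cell genes. DESeq2 called 2 stress genes, and edgeR called 7 without library 1. The part of these transcripts in the result was not tested.

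The 10 genes with the largest rise against few-marker cells were Otos, Corin, Dpt, Chrdl2, Grem1, Angptl7, Pdcd1, Enpp2, Rarres2 and Col10a1. Corin, a membrane protease gene, rose from 2.27, 0.927 and 1.86 to 43.5, 18.2 and 24.5 CPM (3.98 ± 0.56, adjusted p = 0.00153), and Enpp2, which encodes the lysophospholipase autotaxin, from 49.9, 21.01 and 21.8 to 423, 119 and 134 CPM (2.92 ± 0.28, adjusted p = 8.16e-05). Otos gets no fold change, because few-marker cells had none of its UMIs, and selected cells had 84, 4 and 1. The genes with the largest fall were led by Dscaml1 and Ppp1r9a, which act in neurons as cell adhesion and actin-binding proteins. Dscaml1 stood at 0, 6.99 and 5.15 against 13.6, 27.5 and 20.3 CPM (-1.90 ± 0.30, adjusted p = 0.00273) and Ppp1r9a at 4.35, 20.2 and 15.01 against 141, 52.5 and 49.1 CPM (-1.72 ± 0.36, adjusted p = 0.0148). F13a1, the gene of a clotting factor subunit that cross-links matrix, also fell, at 226, 233 and 243 against 617, 708 and 579 CPM (-1.30 ± 0.35, adjusted p = 0.0437).

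Against Cilp-high cells, cartilage matrix and maturation genes were more often higher, and superficial genes more often lower than higher. Over all genes, 12.6% were higher and 9.21% lower. Of 28 cartilage matrix genes, 13 were higher and 3 lower, with a median log2 fold change of 1.10 against -0.01 over all genes. Matn3 stood at 52.2, 768 and 678 against 0.489, 48.001 and 52.9 CPM (4.01 ± 0.46, adjusted p = 2.60e-05), and Epyc, the gene of the proteoglycan epiphycan, at 0, 50.4 and 40.7 against 0, 4.56 and 3.92 CPM (3.34 ± 0.31, adjusted p = 2.89e-06). Of 18 chondrogenic transcription factor genes 8 were higher and none lower, with Runx2 at 216, 281 and 275 against 28.8, 22.5 and 29.9 CPM (3.17 ± 0.25, adjusted p = 7.09e-07). Lef1 stood at 62.3, 165 and 141 against 6.35, 12.7 and 12.6 CPM (3.42 ± 0.29, adjusted p = 1.92e-06). Of 14 superficial genes, 2 were higher (Cd44 and Crtac1) and 4 lower (Cilp2, Clu, Erg and Creb5). The count of 2 lay near the share over all genes. Clu stood at 5438, 1263 and 1554 against 10366, 8675 and 8636 CPM (-2.15 ± 0.59, adjusted p = 0.0173), and Gas1 at 225, 327 and 365 against 815, 1870.01 and 1794 CPM (-2.35 ± 0.41, adjusted p = 0.000781). Prg4 did not pass (-1.16 ± 0.97, adjusted p = 0.428), with 93345, 26761 and 36786 against 131826, 72507 and 82461 CPM, but was lower without library 1 (-1.37 ± 0.15, edgeR adjusted p = 2.22e-06), where 4 of the 14 superficial genes were higher and 8 lower. In that fit 6417 of 16263 genes passed. Genes of dividing cells were higher as well. Of 14 genes of columnar and proliferating chondrocytes, 10 were higher, among them Mki67 (37.7, 35.4 and 15.1 against 3.91, 8.62 and 3.92 CPM, 2.06 ± 0.41, adjusted p = 0.00232), a proliferation marker. Of the lists of other cells, 3 of 6 tendon genes were higher and 1 lower, and 2 of 8 leukocyte and 2 of 6 erythroid genes were higher. Of 10 dissociation stress genes, 3 were higher. These lists are short, and the shares over all genes given above stand beside their counts. The part of these transcripts in the result was not tested.

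Leading the rise against Cilp-high cells after the antibody gene Ighm were Cpa6, a carboxypeptidase gene, Fras1, a basement membrane protein gene, and Luzp2. Cpa6 stood at 30.4, 82.7 and 71.5 against 2.44, 3.04 and 3.197 CPM (4.39 ± 0.39, adjusted p = 2.46e-06) and Fras1 at 21.7, 29.9 and 29.2 against 0, 1.86 and 1.31 CPM (4.31 ± 0.40, adjusted p = 3.44e-06). Ighm had 733, 63 and 66 UMIs in selected cells, most of them in library 1. Leading the fall were Serpina1e, a protease inhibitor gene with near-identical copies whose counts are therefore uncertain, Shank2, a scaffold protein gene, and Alox12, a lipoxygenase gene. Shank2 stood at 11.6, 4.04 and 4.23 against 44.96, 52.9 and 42.4 CPM (-3.44 ± 0.27, adjusted p = 9.45e-07), and Gldc, which encodes the glycine-cleaving enzyme of mitochondria, at 11.6, 10.7 and 11.3 against 85.5, 81.1 and 76.01 CPM (-2.82 ± 0.34, adjusted p = 4.35e-05).

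Against Prkg2 cells, superficial cartilage genes were mostly higher and cartilage matrix genes more often lower. Superficial genes were higher in 11 of 14 cases and lower in 1, Cd44, with a median log2 fold change of 2.24 against 0.01 over all genes. Over all genes, 18.1% were higher and 13.0% lower. Prg4 stood at 93345, 26761 and 36786 against 139, 1202 and 2514 CPM (4.83 ± 1.15, adjusted p = 0.00530), Clu at 5438, 1263 and 1554 against 90.5, 142 and 213 CPM (3.77 ± 0.64, adjusted p = 0.000563) and Abi3bp at 581, 492 and 515 against 3.48, 37.9 and 52.5 CPM (3.90 ± 0.41, adjusted p = 1.11e-05). Of 28 cartilage matrix genes, 3 were higher and 14 lower, with a median of -0.67. Matn3 stood at 52.2, 768 and 678 against 191, 1907 and 1735 CPM (-1.40 ± 0.41, adjusted p = 0.0176). Col9a1 stood at 31.9, 1569 and 1407 against 212, 3462 and 3235 CPM (-1.45 ± 0.38, adjusted p = 0.00893). Of 23 genes of BMP and TGF-beta signalling 15 were higher and 2 lower, with Bmp4 at 7.25, 7.46 and 5.63 against 0, 0.572 and 0.732 CPM (3.39 ± 0.32, adjusted p = 4.61e-06). Markers of other cells and of stress rose in the same comparison. Of those tested, 5 of 6 tendon, 4 of 5 fibroblast, 4 of 6 erythroid, 3 of 7 reticular cell and 5 of 10 dissociation stress genes were higher and none lower, and their part in the result was not tested. Lef1 did not pass (-0.02 ± 0.26, adjusted p = 0.968), but was higher without library 1 (0.41 ± 0.08, edgeR adjusted p = 0.000398). The largest falls were of Ppa1, a pyrophosphatase gene (106, 512 and 544 against 2401, 3369 and 2859.8 CPM, -2.99 ± 0.46, adjusted p = 0.000254), and Fxyd2, which encodes a subunit of the sodium pump (15.9, 279 and 249 against 1535, 1203 and 1164 CPM, -2.95 ± 0.50, adjusted p = 0.000515). Mki67 (-1.01 ± 0.33, adjusted p = 0.0275) and Top2a (-1.16 ± 0.30, adjusted p = 0.00893) were lower, and both turned to the opposite sign, without passing, when the 5% of barcodes with the most UMIs were left out.

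Wif1 is 1 of a family of secreted Wnt antagonists, and the other measured members differed in their pattern. Of 9 tested, 9 were higher than in Prkg2 cells, 7 were higher and 1 (Dkk3) lower than in Cilp-high cells, and 3 (Sfrp2, Frzb and Dkk3) were higher than in few-marker Acan cells. Median log2 fold changes were 1.88, 1.98 and 1.05. Over all genes, 18.1, 12.6 and 2.41% were higher and 13.0, 9.21 and 2.37% lower in the same order. Selected cells held few UMIs of Sfrp1 (5, 228 and 161), Dkk1 (0, 32 and 52) and Dkk2 (4, 148 and 110). So it was for Sfrp4 in libraries 2 and 3 (92 and 41), and these calls carry that limit. Frzb, a Frizzled-related protein gene of joints, stood at 210.1, 194 and 249 CPM in selected cells, with 45.4, 42.9 and 55.4 CPM in few-marker (2.39 ± 0.31, adjusted p = 0.000865), 83.6, 122 and 122 CPM in Cilp-high (0.89 ± 0.28, adjusted p = 0.0308) and 3.48, 21.4 and 29.9 CPM in Prkg2 cells (3.41 ± 0.32, adjusted p = 4.83e-06). Ibsp-high cells, which were not part of the tests, held 130.3, 328 and 339 CPM of Frzb, more than the selected cells in libraries 2 and 3. Sfrp2 also passed against each of the 3 tested neighbours, at low levels (7.25, 8.35 and 4.395 CPM). It had 0 to 3 UMIs a library in each of them, so no fold is given for it. Notum stood at 46.4, 89.8 and 95.6 CPM, against 8.31, 10.5 and 14.97 CPM in Cilp-high cells (2.73 ± 0.16, adjusted p = 1.35e-07), and did not pass against few-marker cells (-0.09 ± 0.14, adjusted p = 0.762). Sfrp5 stood at 28.99, 102 and 93.8 CPM against 12.2, 19.3 and 22.96 CPM in Cilp-high (1.98 ± 0.25, adjusted p = 5.93e-05) and 20.9, 26.04 and 32.3 CPM in Prkg2 cells (1.71 ± 0.24, adjusted p = 0.000132). Dkk3 stood at 40.6, 23.7 and 24.8 CPM, below Cilp-high cells (59.6, 49.02 and 64.2 CPM, -1.11 ± 0.26, adjusted p = 0.00710) and above Prkg2 cells (13.9, 1.36 and 2.73 CPM, 3.57 ± 0.36, adjusted p = 8.18e-06). Within the selected cells, Frzb was on the Prg4-high side (258, 386 and 401 against 80.7, 107 and 147 CPM) and Notum on the Prg4-low side.

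**Figure D5:**
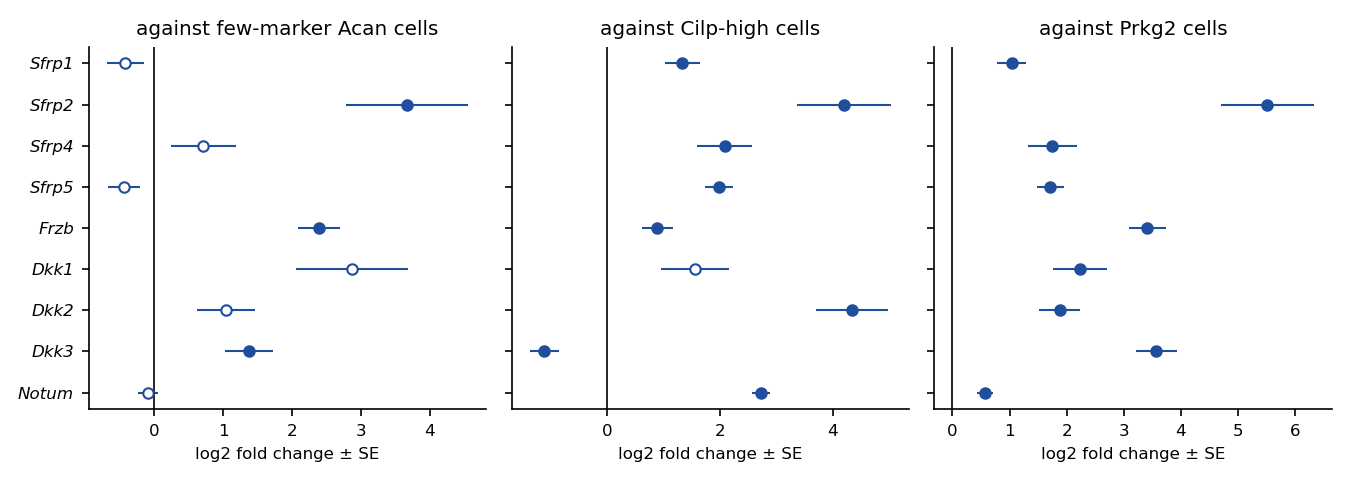
Log2 fold change ± SE (edgeR) of 9 secreted Wnt antagonist genes in selected cells against few-marker Acan, Cilp-high and Prkg2 cells, 3 libraries; filled points passed an adjusted p of 0.05. All 9 points are filled against Prkg2 cells, 8 against Cilp-high cells (Dkk3 below 0) and 3 against few-marker cells. Sfrp1, Sfrp2, Dkk1 and Dkk2 had few UMIs.

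Wnt ligands, receptors and response genes moved less uniformly. Of 20 ligand and receptor genes, 3 were higher (Fzd8, Fzd9 and Lrp5) and 1 lower (Wnt4) than in few-marker cells, 7 higher and 1 lower than in Cilp-high cells, and 12 higher and 2 lower than in Prkg2 cells. Lrp5, a Wnt co-receptor gene, stood at 10.1, 18.9 and 22.1 against 13.6, 7.72 and 9.44 CPM in few-marker cells (1.27 ± 0.21, adjusted p = 0.00434). It thus passed with the opposite direction in library 1. Wnt4 stood at 7.25, 34.2 and 35.2 against 29.5, 85.9 and 68.1 CPM (-1.05 ± 0.18, adjusted p = 0.00494). Of 11 response genes, 1 (Lgr6), 6 and 3 were higher and 0, 1 and 2 lower in the same order of comparisons. The shares over all genes in that order were 2.41, 12.6 and 18.1% higher and 2.37, 9.21 and 13.0% lower. Axin2, a feedback gene of Wnt signalling, was near the limit of detection (0, 5.07 and 3.43 CPM).

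Growth zones were compared by 3 further lists. Their counts stand beside shares over all genes of 2.41, 12.6 and 18.1% higher and 2.37, 9.21 and 13.0% lower. These shares are against few-marker, Cilp-high and Prkg2 cells in turn. Of 10 resting zone genes, 3 (Gas1, Cd200 and Grem1) were higher and none lower than in few-marker cells, 3 higher and 2 lower than in Cilp-high cells, and 7 higher and 1 lower than in Prkg2 cells. Of 11 prehypertrophic and hypertrophic genes, Col10a1 was higher (781, 184 and 241 against 129, 51.6 and 30.6 CPM, 2.74 ± 0.55, adjusted p = 0.0116) and Runx2 lower than in few-marker cells, 5 were higher than in Cilp-high cells, and 2 were higher and 5 lower than in Prkg2 cells. Pth1r, the receptor gene for the PTHrP signal that holds back hypertrophy, stood at 37.7, 113 and 108 CPM, between Cilp-high (11.2, 35.3 and 30.8 CPM, 1.67 ± 0.44, adjusted p = 0.0130) and Prkg2 cells (205, 330.3 and 269.9 CPM, -1.50 ± 0.42, adjusted p = 0.0134). Of 14 genes of the FGF and IGF axis, 2 were higher than in few-marker cells, 4 higher and 1 lower than in Cilp-high cells, and 8 higher than in Prkg2 cells. Fgf18, a growth factor gene of cartilage, stood at 27.5, 17.8 and 23.5 CPM, against 15.9, 5.56 and 11.5 CPM in few-marker cells (1.29 ± 0.25, adjusted p = 0.00923).

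Cox4i2 was followed with the other respiratory chain genes. Of 24 tested, none passed against few-marker cells (median log2 fold change 0.15), 2 were lower than in Cilp-high cells (Ndufs5 and Ndufv3) and 4 were lower than in Prkg2 cells (Cox5a, Cox6a1, Ndufa4 and Uqcrc1). Over all genes, 9.21% were lower than in Cilp-high and 13.0% lower than in Prkg2 cells. The counts of 2 and 4 lay near those shares with all libraries. DESeq2 called 4 and 6 lower. Without library 1, the 24 genes split into 2 higher and 7 lower than in Cilp-high cells. Against Prkg2 cells none was higher and 17 were lower in that setting. There, 6417 and 8596 of all 16263 genes passed in either direction. The common isoform gene Cox4i1 stood at 412, 489 and 492 CPM in selected cells, with 488, 469 and 491 CPM in Cilp-high and 512, 561 and 549 CPM in Prkg2 cells. Of 15 hypoxia-response genes, none passed against few-marker cells, 7 were lower than in Cilp-high cells and 8 were higher and 1 lower than in Prkg2 cells. In the comparison with few-marker cells edgeR's unadjusted p was under 0.05 for 2 of the 24 respiratory chain genes and 4 of the 15 hypoxia-response genes, all higher in selected cells, and DESeq2 called 1 of each list after adjustment. Without library 1, 6 of the 24 were higher than in few-marker cells and none lower. Of the 15, 8 were higher and 1 lower there, while 4040 of all 16263 genes passed. Ndufa4l2, a hypoxia-induced relative of a complex IV subunit, stood at 577, 548 and 643 CPM, against 104, 103 and 92.1 CPM in Prkg2 cells (2.63 ± 0.49, adjusted p = 0.00109). Of 5 other olfactomedin family genes beside Myoc, 0, 2 and 1 were higher. Of 3 other CAP family genes beside Crispld1, 0, 1 and 1 were higher and 0, 0 and 1 lower. Both lists are short, and in the same order 2.41, 12.6 and 18.1% of all genes were higher and 2.37, 9.21 and 13.0% lower.

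Markers of other cell types were present in the selected cells to a varying extent. The summed level of 8 osteoblast genes was 261, 2838 and 2957 CPM (1, 0 and 0 genes at 0), with Col1a1 at 36.2, 1033 and 1052 CPM and Bglap at 1.45, 227 and 303 CPM, and 0, 108 and 142 selected cells gave the list over 1% of their UMIs. The 9 leukocyte genes summed to 25087, 11.7 and 170 CPM, nearly all of it Igkc in library 1 (24637, 0.329 and 0.161 CPM), and 3, 0 and 0 of those genes were at 0. The 6 erythroid genes summed to 14.5, 63.2 and 204 CPM, with 2, 0 and 0 at 0. The 8 tendon genes summed to 536, 661 and 757 CPM, the 7 fibroblast genes to 174, 161 and 147 CPM and the 7 genes of CXCL12-abundant reticular cells to 1546, 98.8 and 35.2 CPM. The 10 dissociation stress genes summed to 5828, 8312 and 7461 CPM, against 5817, 6674 and 6184 CPM in all kept cells. The part of these transcripts in the differences above was not tested. Of the surface proteins used in the sort, Alcam was low as a transcript in selected cells (7.25, 17.9 and 15.4 CPM) and higher in leukocytes (159, 156 and 188 CPM), and Ly6a, which encodes Sca-1, stood at 42.03, 9.43 and 8.84 CPM. Itga8, the integrin gene that the study follows, stood at 11.6, 9.62 and 8.47 CPM in selected cells and passed only against Cilp-high cells (0.977, 1.18 and 1.74 CPM, 2.61 ± 0.37, adjusted p = 0.000146). Within the selected cells its UMIs lay mostly in Prg4-low cells (43.1, 12.9 and 12.2 against 0, 2.42 and 2.93 CPM).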

How the data were processed

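The files hold UMI counts per gene and cell in the 10x matrix format, which the authors deposited for each of 3 libraries. Per the labels they were made with Cell Ranger 7.1.0 and genome build mm10, and the annotation and strand setting are not given in the sources used here. The matrices hold 20307 barcodes, fewer than the cell total the study states. Barcodes with under 200 genes or over 20% mitochondrial UMIs were left out, and no doublet caller was run. Counts were summed per library and population (at least 10 cells) and tested with edgeR 4.0.16 in R 4.3.3 (quasi-likelihood, TMM scaling, filterByExpr, library as a block, Benjamini-Hochberg over 14585 genes), with DESeq2 1.42.0 as an alternative. The fit was tested on simulated data. Named genes were the 10 with the largest change in each direction, changed the same way in every library and at 20 CPM or more, with the rule's genes, gene list members, the 10 highest genes and the 10 most variable. Other genes named by Prg4, Msmp or library were chosen after their values were seen. The members and gene lists were chosen with earlier results of these data known.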

Additional observations from a re-analysis of the deposited data

How the results depend on the processing

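The mean share of selected cells (19.2%) ran from 11.2% after thinning to 2000 UMIs to 24.96% with 2 markers, and 14.3 to 27.3% with a library left out. Its SD of 14.1 reflects the low share of library 1 and gives no measure of stability, since within library 2 the share went from 29.0 to 15.4% on thinning. The share that was Prg4-high moved from 46.0 to 54.0% with other Prg4 limits, chosen after seeing the data, and 40.1 to 56.6% with a library left out. The count against few-marker cells (698) was 1456 without a filter on low counts, 46 without the library block, 1452 with at least 4 markers, 415 with cells of at least 4000 UMIs, and 2 to 4040 with a library left out. The counts against Cilp-high (3180) and Prkg2 cells (4532) were 1424 and 1878 without the block, and 149 to 6417 and 128 to 8596 with a library left out. DESeq2 called 825, 2999 and 4044. Of 193 single-gene differences, 135 and 138 no longer passed without library 2 or 3, and 85 without the block, and the cause was not tested. With at least 4 markers, Igkc (-2.41) and Ighg2b (-2.50) turned against Cilp-high cells on the log2 scale, both carried by a few cells of library 1. Without the 5% of barcodes with the most UMIs, Mki67 (0.37) and Top2a (0.38) turned against Prkg2 cells. The library, and with it the replicate number, was the block of the model, so populations were compared within libraries. Library 1 held 75 selected, 68 few-marker Acan, 302 Cilp-high and 29 Prkg2 cells, and these numbers limit every comparison.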

Other observations

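Some genes outside the lists also differed between Prg4-high and Prg4-low cells. The 5 given here were chosen after their values were seen, from the 98 higher and 169 lower genes of 6158 that were at least 2-fold apart in every library. Barx1, a homeobox gene active where joints form, stood at 73.4, 71.1 and 65.9 CPM in Prg4-high and 0, 11.9 and 9.59 CPM in Prg4-low cells. Pax1, a paired box gene of the axial skeleton and limb girdles, stood at 0, 3.02 and 5.87 against 26.9, 39.98 and 44.2 CPM. Col12a1, a collagen gene of dense connective tissue, stood at 119, 198 and 179 against 554, 727 and 722 CPM, and Epha4, an ephrin receptor gene, at 3.97, 3.62 and 6.003 against 69.97, 43.3 and 46.9 CPM. Tnfaip6, which encodes a hyaluronan-binding protein induced by inflammation, stood at 456, 269 and 295 against 21.5, 41.8 and 63.7 CPM. The groups did not overlap in these 5 genes, which the choice of genes 2-fold apart in every library favours, so it is no further result.

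Some of the 58 genes that were at least 4-fold higher in the 75 selected cells of library 1 than in both other libraries are given here, chosen after their values were seen. Inhba, the gene of an activin subunit, stood at 3532, 269 and 291 CPM, Nos2, the inducible nitric oxide synthase gene, at 168, 1.13 and 2.52 CPM and Mmp3, a matrix protease gene, at 581, 33.2 and 40.5 CPM. Few-marker Acan cells held Inhba at 3286, 205 and 239 CPM and Nos2 at 408, 0 and 0.619 CPM, high in the same library. The secreted proteins of inflammation Lcn2 (1384, 7.13 and 21.8 CPM) and Chil1 (3367, 433 and 493 CPM) followed, and so did Cxcl12, the chemokine gene of marrow reticular cells (928, 40.2 and 6.86 CPM). In leukocytes of the same libraries, Lcn2 stood at 1854, 2113 and 2533 CPM, Cxcl12 at 214, 2.59 and 3.17 CPM and Inhba at 22.7, 20.2 and 62.7 CPM. The source of these transcripts in library 1 was not tested.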
